A study of Mus musculus with 4 samples.

Results

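Short regions of histone H3 trimethylated at lysine 9 (H3K9me3) that lie in gene deserts, far from any protein-coding gene, were described in mouse macrophages given lipopolysaccharide (LPS) or, as the control, phosphate-buffered saline (PBS). They were chosen by measured values, namely the position and width of the H3K9me3 peaks and the position of H3K4me3 peaks, so these are description and not findings. H3K9me3 peaks listed for LPS and for PBS were merged where they overlapped or touched on chromosomes 1 to 19 and X, which gave 30055 regions. Of these, 27570 (91.7%) were under 500 bp, 8226 (27.4%) lay more than 50 kb from every protein-coding gene body of the RefSeq table, and 21940 (73%) shared no base with a peak of H3K4me3, the trimethylation of lysine 4 that marks promoters. All 3 conditions held for 7195 regions (23.9%), which are the desert regions described here. A further 672 short regions beyond 50 kb were left out because they carried H3K4me3.

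The cells were thioglycollate-elicited peritoneal macrophages of C57BL/6 mice aged 8 weeks, adherent in dishes and exposed for 24 h to LPS, the endotoxin of Gram-negative bacteria that innate immune cells sense, or to PBS. Thioglycollate draws cells into the peritoneum, so all groups share that stimulus and hold elicited rather than resident macrophages. Chromatin was precipitated with an antibody to H3K9me3 (ab8898) or H3K4me3 (ab8580), giving 4 groups of 1 library each: H3K9me3 after LPS, H3K9me3 after PBS, H3K4me3 after LPS and H3K4me3 after PBS. With 1 library per group there is no replicate check and no test between treatments; every difference below is a difference between libraries. The filtered H3K9me3 libraries held 28586946 (LPS) and 27727997 (PBS) tags, 17288 and 19162 peaks were used, and the caller's fragment lengths were 71 and 66 bp. The H3K4me3 lists had a peak within 1 kb of 10 of 10 macrophage marker genes after LPS and after PBS. For T cells 2 of 5 markers had one in LPS and 2 of 5 in PBS (none at Cd3e, Cd3g and Cd8a). For neutrophils they were 2 of 5 in LPS and 0 of 5 in PBS, and for mesothelium with fibroblasts 1 of 5 in LPS and 4 of 5 in PBS. The part of other cell types in the differences below was not tested. In such bulk chromatin, a mark present in fewer cells and less of it in each cell cannot be told apart.

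H3K9me3 is written by the SUV39H and SETDB1 methyltransferases and bound by heterochromatin protein 1, which compacts chromatin. It covers pericentromeric satellites in broad domains and is also found at silenced retrotransposons, at imprinted loci and over clusters of zinc finger genes. Gene deserts are long stretches between genes, rich in transposon remnants, and they often flank developmental regulators and genes of neuronal adhesion.

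A few desert regions touched the RefSeq start windows used here, and 7 of these windows are shown with their sequence. A window runs from 250 bases before to 50 after a gene start; those used belong to 26794 genes and do not cover all genes or all of the chromosomes, so other desert regions may touch gene starts. Of 3174 windows in the deserts without H3K4me3, 17 (0.536%) shared at least 1 base with a desert region. With 1 more window that also carried H3K4me3 outside the shared bases, 18 windows were touched, all of long non-coding RNA (lncRNA) genes. The distance rule left no window of a protein-coding gene that could be touched. The regions were 7 of LPS alone, 6 of PBS alone and 5 of both lists. Over all desert regions these shares were 34.1%, 55.8% and 10.1%, and a difference from them was not tested. The 5 windows of regions listed in both libraries are printed because they are the ones both immunoprecipitations found, and Gm35407 and Gm41315 follow because of their likeness to Gm38778. Letters run 5′ to 3′ along the gene from RefSeq GRCm38.p6, and capitals mark the bases inside the H3K9me3 region.

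Gm34698 (chr1:120993629-120993928, minus strand, 21 tags in LPS and 18 in PBS): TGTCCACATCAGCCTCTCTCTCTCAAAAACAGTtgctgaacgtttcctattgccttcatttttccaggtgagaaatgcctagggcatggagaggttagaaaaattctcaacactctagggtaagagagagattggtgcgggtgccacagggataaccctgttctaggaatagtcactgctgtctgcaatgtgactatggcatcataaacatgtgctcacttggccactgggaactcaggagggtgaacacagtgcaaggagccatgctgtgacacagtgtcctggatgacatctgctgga
Gm46921 (chr5:118492581-118492880, minus strand, 27 tags in LPS and 19 in PBS): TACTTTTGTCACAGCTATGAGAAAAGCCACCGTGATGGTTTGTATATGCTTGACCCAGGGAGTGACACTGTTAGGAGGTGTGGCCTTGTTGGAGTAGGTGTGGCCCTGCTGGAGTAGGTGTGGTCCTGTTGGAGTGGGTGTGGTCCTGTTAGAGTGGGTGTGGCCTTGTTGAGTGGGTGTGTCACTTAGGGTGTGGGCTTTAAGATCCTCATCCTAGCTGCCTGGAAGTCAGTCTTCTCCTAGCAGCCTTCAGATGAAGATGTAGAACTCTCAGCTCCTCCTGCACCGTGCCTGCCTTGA
Gm38778 (chr6:27204769-27205068, plus strand, 14 tags in LPS and 15 in PBS): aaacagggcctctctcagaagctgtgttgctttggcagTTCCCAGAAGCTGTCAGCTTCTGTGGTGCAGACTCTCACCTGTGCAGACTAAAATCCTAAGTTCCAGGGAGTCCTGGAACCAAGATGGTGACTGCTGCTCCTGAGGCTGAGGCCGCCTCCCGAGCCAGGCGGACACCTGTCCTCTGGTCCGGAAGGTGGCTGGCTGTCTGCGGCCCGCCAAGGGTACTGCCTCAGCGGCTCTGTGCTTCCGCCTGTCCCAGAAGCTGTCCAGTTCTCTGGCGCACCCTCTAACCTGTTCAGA
Gm35240 (chr12:77553461-77553760, plus strand, 26 tags in LPS and 27 in PBS): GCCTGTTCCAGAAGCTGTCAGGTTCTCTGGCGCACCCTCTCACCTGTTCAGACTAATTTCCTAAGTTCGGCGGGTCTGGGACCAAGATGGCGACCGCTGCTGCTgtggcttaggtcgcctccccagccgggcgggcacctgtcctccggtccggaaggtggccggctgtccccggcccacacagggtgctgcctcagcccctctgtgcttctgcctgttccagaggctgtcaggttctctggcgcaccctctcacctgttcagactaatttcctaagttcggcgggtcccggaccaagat
Gm41149 (chr14:48857157-48857456, plus strand, 20 tags in LPS and 15 in PBS): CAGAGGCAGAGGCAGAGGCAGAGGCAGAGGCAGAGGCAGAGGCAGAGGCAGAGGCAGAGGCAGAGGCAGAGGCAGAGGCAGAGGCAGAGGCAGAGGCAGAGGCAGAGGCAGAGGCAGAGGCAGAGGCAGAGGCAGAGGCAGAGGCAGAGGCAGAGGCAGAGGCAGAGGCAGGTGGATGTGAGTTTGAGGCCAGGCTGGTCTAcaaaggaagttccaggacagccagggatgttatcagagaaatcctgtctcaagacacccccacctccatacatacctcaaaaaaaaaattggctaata
Gm35407 (chr3:67753350-67753649, plus strand, 13 tags in LPS, not listed in PBS): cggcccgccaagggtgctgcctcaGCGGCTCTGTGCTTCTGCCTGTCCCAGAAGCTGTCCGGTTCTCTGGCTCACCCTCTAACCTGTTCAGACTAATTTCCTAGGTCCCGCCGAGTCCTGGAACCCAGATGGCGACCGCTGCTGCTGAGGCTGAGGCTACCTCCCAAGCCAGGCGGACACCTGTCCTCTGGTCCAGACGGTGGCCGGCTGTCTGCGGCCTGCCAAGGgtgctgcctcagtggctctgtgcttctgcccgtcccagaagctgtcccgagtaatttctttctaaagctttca
Gm41315 (chr15:42942099-42942398, plus strand, not listed in LPS, 12 tags in PBS): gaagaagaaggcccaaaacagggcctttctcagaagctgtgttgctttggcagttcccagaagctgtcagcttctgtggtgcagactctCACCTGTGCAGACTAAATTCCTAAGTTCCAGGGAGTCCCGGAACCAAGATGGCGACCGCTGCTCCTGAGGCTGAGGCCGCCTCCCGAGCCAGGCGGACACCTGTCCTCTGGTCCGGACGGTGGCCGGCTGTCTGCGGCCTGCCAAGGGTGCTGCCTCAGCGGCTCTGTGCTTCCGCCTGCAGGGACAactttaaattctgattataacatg

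Several of these windows held repeated letters. Gm41149 opened with CAGAGG repeated 28 times without a break, over 168 bases. In Gm35240 a stretch of 63 bases occurred 2 times, starting 212 bases apart. Gm38778 on chromosome 6 and Gm41315 on chromosome 15 shared an identical stretch of 79 bases, and Gm35407 and Gm41315 shared 44 bases. Parts of these stretches lay outside the H3K9me3 regions. They were the later copy in Gm35240, most of the 79 bases in Gm41315 and the start of them in Gm38778. The end of the 44 bases in Gm35407 lay outside as well. How reads that match several places were handled is not given in the sources used here.

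The windows were also compared by words of 10 letters, read on both strands, which were picked after the letters had been seen. Words were counted over whole windows, so also in bases outside the H3K9me3 regions. The highest count was 4 of the 18 windows, reached by 12 words that overlap each other in part. The most widespread of them, CTGCCTCAGC, was in Gm35240, Gm38778, Gm35407 and Gm41315, and in 78 of all 17122 windows without H3K4me3 (0.456%). This word lay outside the H3K9me3 region in Gm35240 and mostly outside it in Gm35407. Among the rarest, ACCAGAGGAC was in Gm38778, Gm35407, Gm41315 and Gm29895, and in 17 of 17122 (0.0993%). In Gm29895 this word lay outside the H3K9me3 region. Equally rare, ACCTGTCCTC was in Gm35240, Gm35407, Gm38778 and Gm41315, and lay outside the H3K9me3 region in Gm35240. The doubled unit CAGAGGCAGAGG was in 1 of the 18, Gm41149, and in 23 of 17122 (0.134%). The related windows did not share 1 pattern of listing: Gm38778 and Gm35240 were in both lists, Gm35407 and Gm29895 in LPS only and Gm41315 in PBS only. The 17 touched windows without H3K4me3 had a median of 56% G and C and 6 CpG, against 45.3% and 3 CpG in the 3157 other desert windows without H3K4me3; the part of base composition in these peaks was not tested.

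Most desert regions were weak peaks, as were short regions near genes. In the LPS list desert regions held 12 to 59 tags with a median of 15, and in the PBS list 11 to 52 with a median of 15. The caller's fold over its background had medians of 8.29 (LPS) and 8.17 (PBS), and the widths of the peaks had medians of 232 and 225 bp. The caller's score, a scaled −log10 of its p-value, had a median of 58.3 in both lists where the lowest listed was 50. It was under 100 for 95.5% of LPS peaks and 95.1% of PBS peaks, and 144 and 231 peaks reached 100. Short regions without H3K4me3 on gene bodies and within 50 kb of them had median tags of 16 in LPS and 15 in PBS. Of their peaks, 93.9 to 95.2% scored under 100. Their median folds were 7.61 (gene bodies) and 7.74 (within 50 kb) in LPS, and 8.17 for each in PBS. The peaks listed in desert regions held 0.185% of the filtered tags in LPS and 0.277% in PBS. Tags at regions that a library did not list are not counted, so these shares follow the number of listed peaks. The listed peaks of desert regions made up 18.4% and 24.8% of all peaks listed. LPS and PBS peaks of any kind covered 0.125% and 0.163% of desert bases.

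The desert regions were listed more often after PBS than after LPS, and seldom in both. LPS listed 3179 and PBS 4744. By exact 95% intervals, which cover counting error only, LPS alone listed 2451 (34.1%, 33.0 to 35.2%), PBS alone 4016 (55.8%, 54.7 to 57.0%) and both libraries 728 (10.1%, 9.43 to 10.8%). Over all 30055 merged H3K9me3 regions, LPS alone had 37%, PBS alone 43.1% and both libraries 19.9%. These shares are not read against the whole directly, because the width limit removes regions that are wide, and a region merged from peaks of both lists is wider: of the 167 desert regions of 500 bp or more without H3K4me3, 71.3% were in both lists. The like set is the 13965 short regions without H3K4me3 on gene bodies or within 50 kb of them, of which 39.3% belonged to LPS alone, 49.6% to PBS alone and 11.1% to both lists. There were 0.610 desert regions in LPS only for each in PBS only (0.580 to 0.642), against 0.793 (0.765 to 0.822) in that set. A region missing from a list did not pass the caller's threshold there, and its tags in that library were not given, so absence of the mark is not shown.

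The excess of PBS-only regions was larger in the deserts than on gene bodies, and the lowest ratios of LPS-only to PBS-only regions lay far from genes. In the deserts, LPS-only regions per PBS-only region were 0.657 at 50 to 100 kb, 0.628 at 100 to 250 kb, 0.590 at 250 to 500 kb, 0.551 at 500 to 1000 kb and 0.542 beyond 1000 kb (0.443 to 0.661). On gene bodies the value was 0.824 (0.784 to 0.866), within 10 kb of them 0.787 (0.723 to 0.856), at 10 to 25 kb 0.722 (0.662 to 0.787) and at 25 to 50 kb 0.781 (0.709 to 0.860). The order is thus broken at 10 to 25 kb, whose interval overlaps that of 50 to 100 kb (0.595 to 0.725). Intervals of all 5 desert classes overlap each other, and the differences among them were not tested. Regions with H3K4me3, wherever they lay, had 1.64 in LPS only for each in PBS only (1.54 to 1.73), the opposite order. The PBS list was longer than the LPS list, and with both cut to equal length by score, a setting added after seeing the data, the values were 0.723 in the deserts and 0.922 near genes.

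**Figure D1:**
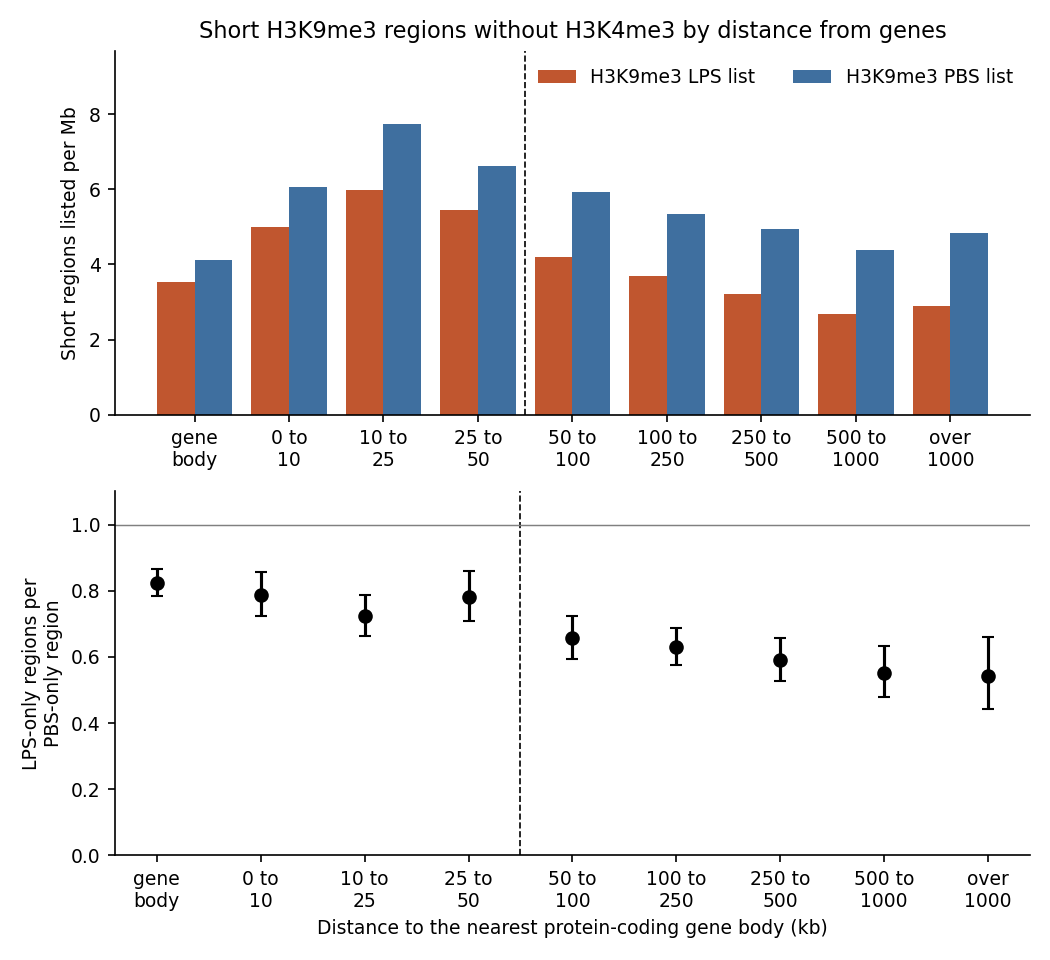
Top, short H3K9me3 regions without H3K4me3 listed per Mb in LPS (left bars) and PBS (right bars), by distance in kb to the nearest protein-coding gene body; the dashed line marks 50 kb, right of which are the desert regions. Bottom, LPS-only regions per PBS-only region with exact 95% counting intervals; values fall to 0.542 beyond 1000 kb, against 0.824 on gene bodies, and the grey line marks equal numbers.

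The density of short H3K9me3 regions was slightly lower in the deserts than elsewhere. The deserts covered 914.1 Mb, 35.6% of the chromosomes between their first and last listed peak. They held 7.87 regions per Mb, against 8.43 in the rest, a ratio of 0.933 (0.907 to 0.960). With deserts set at more than 25 kb the ratio was 1.03 (0.998 to 1.05), an interval that includes 1. The lower density was thus not seen at that limit. Within the deserts, 9.24 regions per Mb at 50 to 100 kb compared with 8.12, 7.42, 6.47 and 7.13 in the classes farther out. The highest density of all, 12.4 per Mb, lay at 10 to 25 kb from genes, and gene bodies had 6.89. Bases that reads cannot be mapped to were not removed from these lengths, and the part of mappability in these densities was not tested.

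The desert regions listed by both libraries had similar tags in LPS and PBS on the whole. They are the 10.1% that passed the same threshold in both, so a region with unequal tags was more likely to be in 1 list only, and their likeness is in part set by this choice. The 728 shared regions held 12 to 41 tags in LPS with a median of 17, and 11 to 45 tags in PBS with a median of 17. Tags were divided by the filtered tags of their library, and the log2 of LPS over PBS had a median of −0.04 (−0.04 to 0.02, from the ranked values), quartiles of −0.33 and 0.28, and a range of −1.41 to 1.28. Equal tag counts give −0.04, so the median is that of equal counts. The ratio was above 0 for 342 regions and below 0 for 386. Its SD over regions was 0.469 and the SD that counting error alone gives was 0.493 on average. The interval of the single ratio left out 0 for 43 regions (5.91%). Intervals of 95% leave out 0 for some regions by counting error alone. The same share was not counted for shared regions near genes, so these 43 are not read as regions that differ. The median of the 1554 shared short regions near genes was −0.04 as well. The tag plot shows a single cloud around equal tags.

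**Figure D2:**
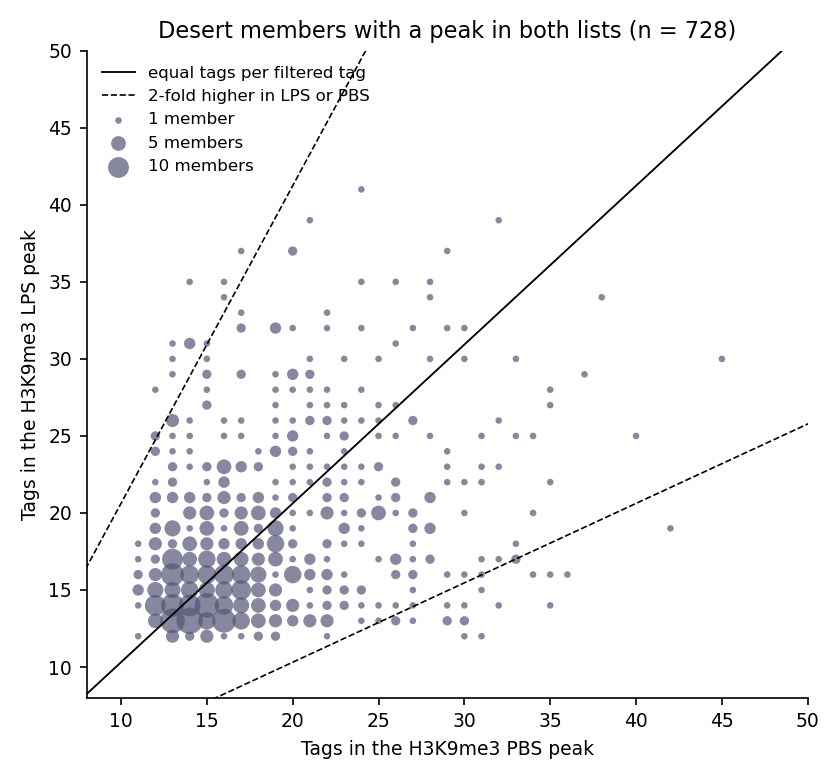
Tags in the H3K9me3 LPS peak (vertical) against tags in the H3K9me3 PBS peak (horizontal) for the 728 desert regions in both lists; the size of a point gives the number of regions. The solid line marks equal tags per filtered tag and the dashed lines a 2-fold difference, which few points pass.

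The rule places the peaks of a shared region close together, since they must overlap or touch within 500 bp. The summits were a median of 41 bp apart, and 406 of 728 pairs (55.8%) were within 50 bp, against 39 bp and 60.1% in shared short regions near genes. In 616 (84.6%) the shared bases made up at least 50% of each peak, against 90.5% near genes. Of LPS-only desert regions, 8.65% (7.57 to 9.83%) had a PBS-listed region within 1 kb, against 7.09% of LPS-only short regions near genes. Of PBS-only desert regions, 5.63% (4.94 to 6.39%) had an LPS-listed region within 1 kb, against 5.85% near genes. Within 10 kb the shares were 20.5% of LPS-only desert regions, against 24.2% near genes, and 13.9% of PBS-only desert regions, against 22.1% near genes.

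Agreement between the lists increased with the tags a desert region held. Of LPS-listed desert regions, 13.98% with 12 or 13 tags were also in the PBS list, 16.1% with 14 or 15, 25.1% with 16 to 18, 34.6% with 19 to 22 and 43.8% (38.5 to 49.3%) with 23 to 59. Of PBS-listed desert regions, 8.87% with 11 to 13 tags were also in the LPS list, then 11.3%, 17.7% and 26.9%, and 29.1% (25.1 to 33.4%) with 23 to 52. Most desert regions fall in the low classes. Short regions near genes climbed in the same way, to 38.95% and 33.4% in the highest classes, for LPS-listed and PBS-listed regions.

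**Figure D3:**
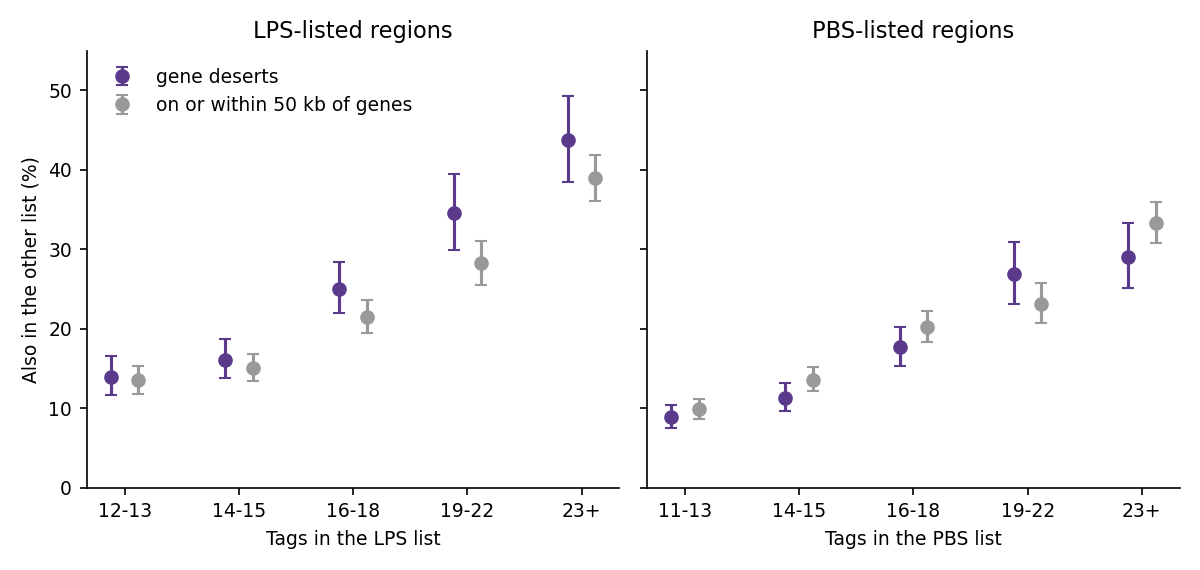
Percent of short H3K9me3 regions of 1 list also in the other (vertical), by tags in the named list (horizontal), for LPS-listed (left panel) and PBS-listed (right panel) regions; bars are exact 95% intervals. Purple points are desert regions, grey points are regions on or within 50 kb of genes, and both climb with tags.

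The regions with most tags over both libraries were not those with the largest ratios. The first 5 held 66 to 75 tags. The highest, chr9:117790072-117790559 between Rbms3 (an RNA-binding protein) and Zcwpw2 (a histone reader), held 30 tags in LPS and 45 in PBS, a log2 ratio of −0.63 (−1.35 to 0.07). The next, chr3:120104982-120105471, 320.3 kb from Ptbp2 (a splicing regulator of neurons), held 34 in LPS and 38 in PBS. Between Rybp (a Polycomb protein) and Shq1 (a snoRNP assembly factor), chr6:100458495-100458932 held 39 in LPS and 32 in PBS. The interval of each of the 5 ratios included 0. Among regions on non-coding genes, the pseudogene Gm11392 beside the serpin genes Serpinb6d and Serpinb6e came first with 30 tags in LPS and 33 in PBS. The pseudogene Gm18878, between the placental prolactin genes Prl2c3 and Prl2c2, held 19 in LPS and 42 in PBS, a log2 ratio of −1.19 (−2.05 to −0.37). A region inside Tcra, the T cell receptor alpha locus, held 22 in LPS and 35 in PBS (log2 −0.71, −1.55 to 0.10).

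Differences of 2-fold were few and went with the length called in each library. Shared desert regions whose summed tags reached 40 numbered 224. LPS was higher by 2-fold or more in 12 of them (5.36%), and PBS in 18 (8.04%). Over all 3943 such H3K9me3 regions the shares were 8.85% for LPS and 5.22% for PBS, and over the 633 short ones near genes 2.21% for LPS and 2.69% for PBS. The highest ratio belonged to chr17:79174214-79174700, 83.8 kb from Qpct (glutaminyl cyclase), with 35 tags in LPS and 14 in PBS, a log2 ratio of 1.28 (0.35 to 2.29). The lowest belonged to chrX:44043666-44044096, between Tex13c1 and Dcaf12l2, with 12 in LPS and 31 in PBS, −1.41 (−2.51 to −0.41). In the 5 highest the LPS peaks spanned 350 to 475 bp and the PBS peaks 152 to 217 bp, and in the 5 lowest the LPS peaks spanned 168 to 216 bp and the PBS peaks 408 to 477 bp. Per covered kb, the log2 ratios of those 10 regions lay between −0.39 and 0.31, and of the 224 regions 0 reached 2-fold in LPS and 0 in PBS. In all 10 the peak with more tags was also the longer one, so division by length lowers these differences by construction. It cannot show whether the mark differed. Of the 5 lowest, 3 were on chromosome X, which held 35 of the 728 shared desert regions. Per covered kb the log2 ratios of these 3 were −0.13, 0.02 and −0.21. They were picked as extremes, and a link to chromosome X was not tested.

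The single-list regions with most tags had folds under the median of desert regions in their list. They were picked by tags and were not those with the highest scores, which reached 197.9 in LPS only and 179.5 in PBS only. Among LPS-only regions, chr1:85007596-85008047 held 59 tags, the most of any desert region in LPS, with a score of 78.7 and a fold of 4.59. Among PBS-only regions, chr1:85026340-85026771 held 52 tags, the most in PBS, with a score of 74.3 and a fold of 4.05; it covers part of the pseudogene Gm7582. Both lie in the desert between Slc16a14 (a monocarboxylate transporter family gene) and A530032D15Rik, as does a further LPS-only region, chr1:85035327-85035761, with 43 tags. So 3 of the 10 single-list regions with most tags, 5 of each list, stood in 1 desert, with opposite lists side by side. All 5 of the LPS-only and all 5 of the PBS-only regions had a fold under the median of the desert regions in their list, and 4 of the 10 were within 5 kb of an H3K4me3 peak. The others included chr10:96708912-96709369 (LPS only, 43 tags, score 168, fold 8.2), 86.1 kb from Btg1, an antiproliferative gene. Its fold was under the median of 8.29 of all LPS-listed desert regions but above the 8.03 of LPS-only ones. In PBS only, chr7:59858035-59858484 (43 tags) lies in Snhg14, the long transcript of the imprinted Snrpn and Ube3a locus, and chr17:3030636-3030964 (40 tags) lies 84.0 kb from Scaf8, with no protein-coding gene between it and the first peak of the chromosome.

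Desert regions were spread over all of the long deserts. The chromosomes held 2769 deserts, of which 1664 (60.1%) had a region. All 233 deserts of at least 1 Mb had one. These long deserts held 3010 regions (41.8%) on 46.2% of the desert length, with a median of 6.74 regions per Mb (quartiles 5.196 and 9.20). More regions were LPS-listed than PBS-listed in 36 of them, fewer in 174 and equally many in 23. The PBS list was the longer one both in deserts and near genes, and a like count outside the deserts was not made. The most regions, 38 on 3.28 Mb, stood between Hace1 (a ubiquitin ligase) and Grik2 (a kainate receptor) on chromosome 10, 9 of LPS alone, 27 of PBS alone and 2 of both lists. Between Cox7c (a cytochrome oxidase subunit) and Edil3 (an integrin ligand) on chromosome 13 there were 37 on 2.68 Mb, 13 of LPS alone, 21 of PBS alone and 3 of both lists; that desert held no H3K4me3 peak. Between Kcnt2 (a potassium channel) and Cdc73 (a subunit of the PAF1 complex) on chromosome 1, 35 regions on 2.89 Mb were 14 of LPS alone, 16 of PBS alone and 5 of both lists. The densest, with 19.96 regions per Mb, stood between Akr1e1 and Klf6 on chromosome 13.

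**Figure D4:**
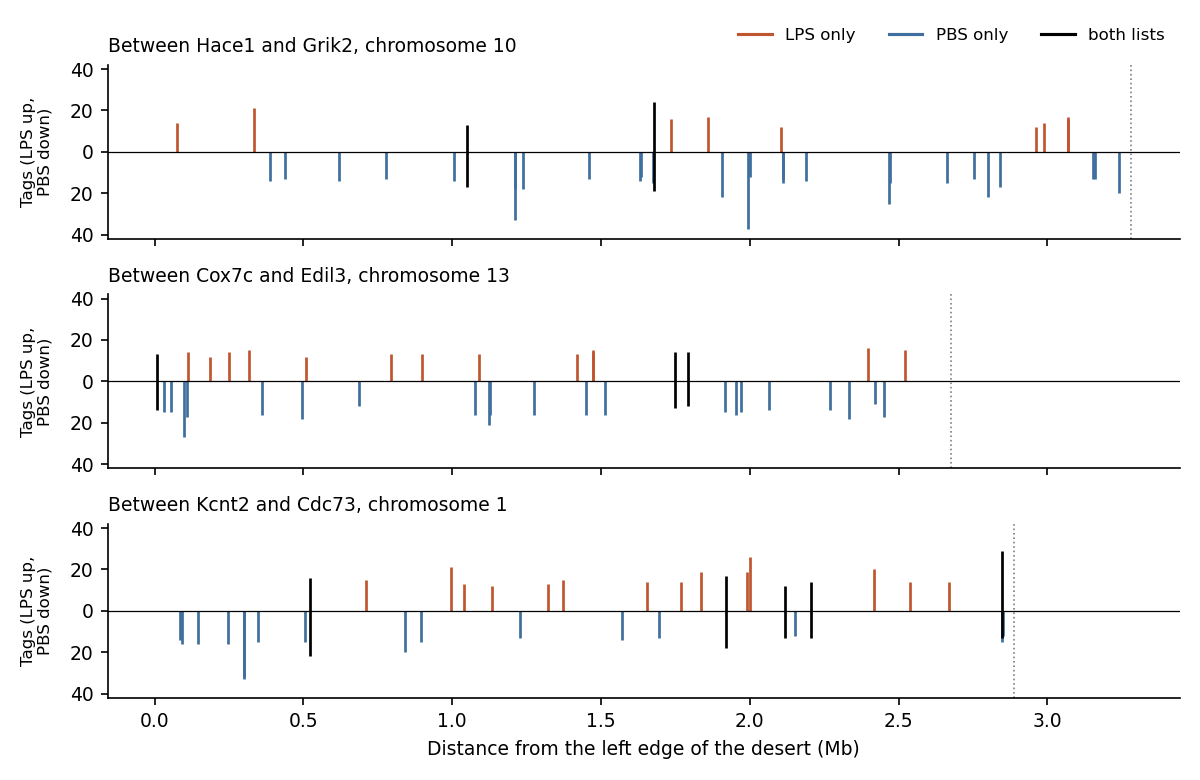
Tags of each desert region in LPS (up) and PBS (down) along the 3 deserts with most regions, by distance in Mb from the left edge; the dotted line marks the right edge. Black lines are regions in both lists, 2, 3 and 5 from top to bottom; single-list regions of both kinds run through each desert.

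The rule sets the distance of desert regions from genes and asks that no base is shared with H3K4me3. Since H3K4me3 marks promoters, the limit on gene distance also keeps these regions away from many of its peaks. The median distance to a protein-coding gene was 191.5 kb (quartiles 97.2 and 411.7 kb) and the longest 2219 kb, for a PBS-only region of 14 tags between the protocadherins Pcdh20 and Pcdh9 on chromosome 14, which lies in the lncRNA gene Gm33246. The nearest H3K4me3 peak was a median of 127.6 kb away, against 18.1 kb for short regions within 50 kb of genes. That contrast is in part set by the rule. The median distance to H3K4me3 was 110.7 kb for LPS-only, 140.6 kb for PBS-only and 119.8 kb for shared desert regions. An H3K4me3 peak lay within 1 kb of 140 (1.95%) and within 10 kb of 650 (9.03%). Another H3K9me3 region lay within 1 kb of 900 (12.5%) and at a median of 29.0 kb. At the limits of the rule, the desert region nearest to genes was at 50.003 kb (LPS only, 16 tags) and the first left out at exactly 50 kb (LPS only, 17 tags). The widest kept, at 499 bp, held 24 tags in LPS and 13 in PBS (shared) or 33 tags (PBS only), and the narrowest left out, at 500 bp, held 14 in LPS and 36 in PBS (shared) or 30 tags (LPS only).

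The share of desert regions on non-coding genes was slightly above the share of desert bases these genes cover. A region was counted if it shared any base with a gene. Its width alone can thus lift the share above that of bases, most of all for short genes. An excess was not tested. Of 7195, 1056 (14.7%, 13.9 to 15.5%) overlapped a non-coding gene, which cover 13.2% of desert bases. For lncRNA genes the values were 11.4% of regions (10.67 to 12.15%) and 11.04% of bases, which lies inside that interval. Pseudogenes, disabled copies of genes, overlapped 156 (2.17%, 1.84 to 2.53%) and cover 1.12% of desert bases. Small RNA genes were rarely met: snoRNA genes overlapped 5 regions (0.0695%, 0.0226 to 0.162%) and cover 0.00675% of desert bases, and tRNA genes overlapped 2 (0.0278%, 0.00337 to 0.100%) and cover 0.000544%. For miRNA genes, on 0.00158% of desert bases, it was 0 of 7195, which allows a share of up to 0.0513%.

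The genes beside the deserts were set out by families. Deserts with a neuronal adhesion or synapse gene at an edge, such as protocadherins and cadherins, held 1149 regions (15.97%, 15.1 to 16.8%) on 18.3% of desert length, and those beside developmental transcription factors 296 (4.11%, 3.67 to 4.60%) on 5.25%. Beside olfactory and vomeronasal receptor genes there were 78 (1.08%, 0.858 to 1.35%) on 0.919%, and beside zinc finger genes 183 (2.54%, 2.19 to 2.93%) on 2.42%. LPS-only regions per PBS-only region were 0.538 (0.472 to 0.613) beside neuronal genes, 0.527 beside developmental factors, 0.682 beside receptor genes and 0.635 beside zinc finger genes, with intervals that overlap. The genes with most desert regions beside them were Pcdh7 (a protocadherin) with 56 and Grik2 with 51. Lrrc4c (a synaptic adhesion gene) followed with 51 and Cdh8 (a cadherin) with 48. These counts were not divided by desert length. The neuronal family as a whole held a smaller share of regions than of length.

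Chromosome X stood apart in density. It held 3.79 desert regions per Mb of desert, against 8.24 on chromosomes 1 to 19, which ranged between 4.90 on chromosome 19 and 10.4 on chromosome 13. The rest of X was low too, with 2.64 short regions per Mb, against 8.78 on the rest of chromosomes 1 to 19. X desert regions were 1.92 per Mb in LPS and 2.33 per Mb in PBS. PBS-listed desert regions outnumbered LPS-listed ones on 20 of 20 chromosomes, by 35 to 39 on chromosome 19 and 200 to 322 on chromosome 13 (LPS to PBS). The direction is not particular to deserts: PBS also listed more short regions near genes, 8476 against 7043 in LPS. A count by chromosome was not made for those.

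**Figure D5:**
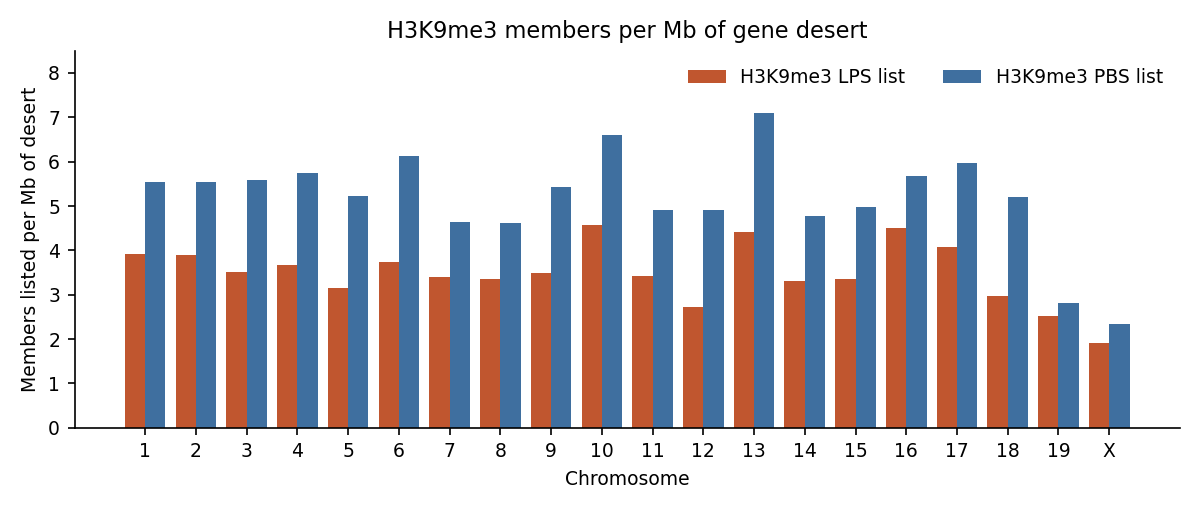
Desert regions listed in the H3K9me3 LPS library (left bars) and PBS library (right bars) per Mb of desert on each chromosome. PBS bars are taller on every chromosome, and X has the shortest pair, 1.92 and 2.33.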

How the data were processed

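H3K9me3 and H3K4me3 were each measured by ChIP-seq in 1 LPS and 1 PBS library. Tools named in the submitters' processing notes are MACS 1.4.2, Bowtie 0.12.8, CASAVA 1.4 and DiffBind, on mm10. Per the file headers, the authors called peaks with MACS in each library without a control, at a p-value cutoff of 1e-05, keeping 1 tag per position. The deposited tables give for each peak a count of tags, a score from the caller and a fold, the caller's ratio to background; scores and folds only describe or filter peaks within a list.

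Peaks were merged where they overlapped or touched, and distances were taken to 21631 protein-coding genes of a RefSeq table of GRCm38.p6, the build of mm10. The number of regions was also obtained with bedtools 2.31.1. Chromosome lengths run from the first to the last listed peak. Tags were scaled by filtered tags (28586946 in LPS, 27727997 in PBS). Intervals are exact 95% Clopper-Pearson intervals, or are read from ranks for medians; neither covers another culture. Median tags of 15 limit the precision of a single region. Scripts (Python 3.11.15, SciPy 1.17.1) were tested on simulated intervals.

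Regions were named by rule: most tags, highest and lowest ratios, most tags in 1 list, farthest from genes, most tags on non-coding genes, and nearest to each limit; long deserts by number and density of regions. The members and lists were chosen with earlier results of these data known. The rule used listing, width, gene distance and H3K4me3, so these are described and not tested. Alternatives changed the distance, width, score, gene set, scaling, overlap and list length. RefSeq start windows stood in for peak sequences, which need a genome. One desert among the densest and the B cell marker list are not reported here.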

Additional observations from a re-analysis of the deposited data

How the results depend on the processing

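No paired analysis was possible because each group held 1 library and the labels give no shared replicate numbers. The number of desert regions was 2949 with every gene of the table defining deserts, 373 with scores of at least 100 and 3250 with scores of at least 60. The PBS-only share was above the LPS-only share under every setting run on it: it moved to 54.5% with the limit at 25 kb, 59.8% with scores of at least 100, 59.1% under 300 bp and 52.1% with lists of equal length, against LPS-only shares of 36.0% under 300 bp and 37.7% with equal lists. The share in both lists was 4.92% under 300 bp, 6.43% with scores of at least 100 and 8.56% with at least 50% of the bases shared. LPS-only regions per PBS-only region were 0.644 at 25 kb, 0.565 with scores of at least 100 and 0.723 with equal lists in the deserts; near genes they were 0.751 with every gene, 0.743 with scores of at least 100, 0.741 with scores of at least 60 and 0.922 with equal lists. The ratio of desert to other densities, 0.933, was 1.03 at 25 kb, 0.878 at 100 kb and 0.997 under 300 bp. It was 0.892 with every gene, 0.842 with scores of at least 100 and 0.898 with scores of at least 60. The intervals at 25 kb (0.998 to 1.05) and under 300 bp (0.966 to 1.03) included 1. The lower density in deserts thus depends on the distance and width limits. The median log2 ratio was −0.078 with the median of all shared regions at 0 and −0.0625 per covered kb.

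Counts of 2-fold regions, 12 in LPS and 18 in PBS, followed the limits. In LPS they were 7 beyond 100 kb, 34 at 1.5-fold, 5 with scores of at least 60, and 0 under 300 bp, with scores of at least 100, with 60 tags and per covered kb. In PBS they were 8 with every gene, 47 at 1.5-fold, 6 with scores of at least 60, 1 under 300 bp and with 60 tags, and 0 with scores of at least 100 and per covered kb. Per covered kb, 6 of the 21 named shared regions turned sign. No interval was computed per covered kb. For 3 of them the interval of the ratio before scaling by length left out 0. Their values per covered kb were −0.39 at chr8:86378713, −0.0678 at chr9:23981503 and 0.0241 at chrX:110881187. For the other 3 the interval before scaling included 0. Per covered kb they had −0.41 at chr1:144321013, 0.0292 at chr13:33734230 and 0.0901 at chr7:15288235. A further 6 kept their sign and moved beyond the interval of the ratio before scaling. Scores of at least 60 and lists of equal length were chosen after seeing the data. Apart from what fewer regions, a higher limit or division by called length remove by construction, the cause was not tested. Weak peaks set the limit: most regions held under 20 tags, and 1 library per group cannot separate treatment from culture or immunoprecipitation.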
